A study of Mus musculus with 21 samples.

Results

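The 5 genes described here are Trem2, Apoe, Abca1, Abcg1 and Cd36, genes that macrophages use to sense, take up, carry and export lipid. They were chosen by name from a panel of 770 genes, all 5 were on it, and all 5 were among the 388 genes that were tested because their raw counts averaged 87 or more. They were measured in 21 libraries of left lung RNA, each from 1 A/J mouse, a strain prone to lung tumors. The series used the NanoString nCounter assay, in which color-coded probes bound to a transcript are counted singly without amplification. In the HDE groups, male and female mice received 50 µL of a 12.5% hog dust extract (HDE, an aqueous extract of dust from swine barns) intranasally 3 times weekly over 24 weeks, and in the saline groups the vehicle by the same route and schedule. NNK, a nitrosamine carcinogen of tobacco, was injected into the peritoneum once at 100 mg/kg in week 4, while mice without NNK had a vehicle injection. The groups were HDE + NNK (5 mice), HDE only (4 mice), saline + NNK (6 mice) and saline only (6 mice). Mice were 8 to 12 weeks old on arrival. Tumors had been cut out of the left lung, and the airways had been lavaged before collection, so cells washed out of the airspaces are missing from this RNA.

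Trem2 is a receptor of macrophages that binds lipids, lipoproteins and dying cells and signals through the adaptor Tyrobp and the kinase Syk. Apoe, a lipoprotein component that macrophages secrete, is one of its ligands and takes up cholesterol at the cell surface. Abca1 and Abcg1 are transporters that move cholesterol out of the cell, Abca1 onto lipid-poor apolipoproteins and Abcg1 onto formed lipoprotein particles, and both are targets of the oxysterol receptors LXR. Cd36 is a scavenger and fatty acid receptor that brings lipid in, and in the lung it is made by capillary endothelium as well as by macrophages. Alveolar macrophages clear surfactant lipid, which is why these genes are followed in the lung.

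Raw counts were scaled in each library by 4 housekeeping genes that the study's methods name (Sdha, Rpl19, Oaz1 and Eef1g, through their geometric mean) and are called normalized counts below. Library totals ran from 174604 to 529829 counts, and single negative control probes from 2 to 40 counts. The column headers carry 2 dates, each with its own code, and libraries that share them are called a run here. The study combined 2 experiments, and in 1 of them control mice also received ethanol in saline by tail vein. Which libraries came from it is not stated. HDE + NNK had 4 libraries in run 1 and 1 in run 2, HDE only 2 and 2, saline + NNK 4 and 2, and saline only 2 and 4. In 1 library, saline only run 2 lane 3, the instrument software left a quality mark, and the HDE only library of run 2 lane 12 stood apart from the other HDE libraries, so results are also given without these 2. Endothelial and epithelial marker genes were counted in every library, as lung tissue should have. Adjusted p values come from the quasi-likelihood test of edgeR, adjusted by Benjamini-Hochberg over the 388 genes, and genes with an adjusted p under 0.05 are called.

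With both NNK backgrounds averaged, HDE over saline changed 4 of the 5 genes. Trem2 rose about 4.59-fold, Apoe 1.36-fold and Abcg1 1.33-fold, Cd36 fell to 0.786 times its saline level, and Abca1 did not pass the test. Of all 388 genes, 49.5% were called in this comparison, 39.4% higher and 10.1% lower, and with 5 genes a count of 3 higher and 1 lower is not set apart from the panel as a whole. The median log2 fold change was 0.41 over the 5 genes and 0.15 over all genes tested. With TMM scaling, which removes that shift, the panel had 117 genes higher and 108 lower, where the housekeeping scaling gave 153 higher and 39 lower. How Trem2 and each of the others stood by library is shown in the plot of normalized counts by group.

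**Figure D1:**
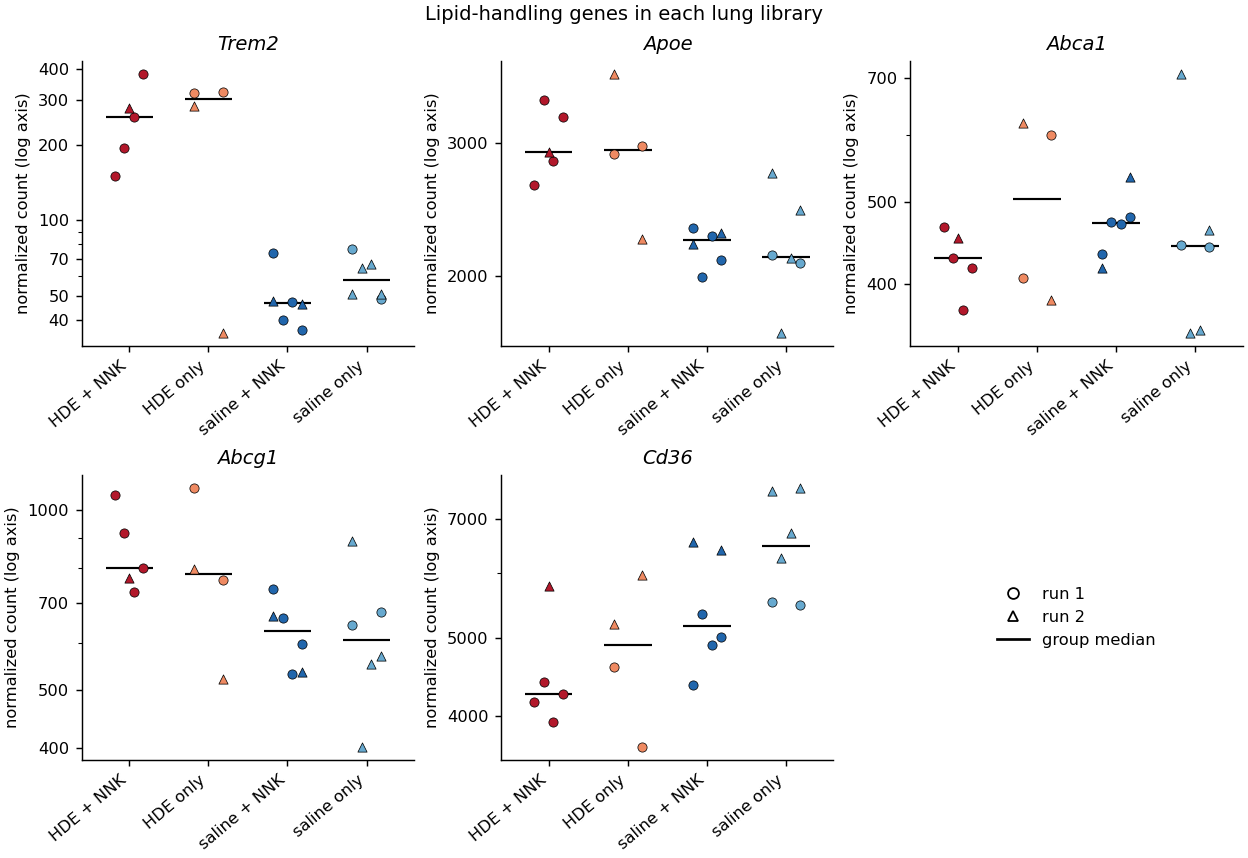
Normalized counts (log axis) of Trem2, Apoe, Abca1, Abcg1 and Cd36 in each library, with circles for run 1, triangles for run 2 and a bar at each group's median. Trem2 separates 8 of 9 HDE libraries from all 12 saline libraries. The remaining 1, at 35.6, lies just under the lowest saline library, at 36.4, while Abca1 overlaps in all 9.

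Trem2 was the gene of the 5 with the largest change. Its normalized counts were 149.6, 194, 259, 281 and 382 in HDE + NNK lungs and 35.6, 286, 322 and 323 in HDE only lungs. In saline + NNK lungs the lowest, median and highest were 36.4, 46.9 and 74.0, and in saline only lungs 48.6, 57.6 and 76.6. Thus 8 of 9 HDE libraries lay above all 12 saline libraries, and the HDE only library of run 2 lane 12 lay below all 12. That last margin was small, 35.6 against 36.4 in saline + NNK run 1 lane 5. Their raw counts were 20 and 37, and their mean negative controls 8.1 and 24.6. Background was not subtracted for this ordering, so which of these low libraries is lower is not settled by it. Among all genes, 18.3% had at least 8 of 9 HDE libraries above every saline library and 8.76% had all 9. The mean was 248 ± 106 in HDE-exposed lungs (SD, n = 9) and 54.1 ± 13.1 in saline-exposed lungs (SD, n = 12). The log2 fold change was 2.20 (SE 0.25, 95% confidence interval 1.68 to 2.72, adjusted p = 1.8e-07 by edgeR). Because Trem2 reached the count minimum only through the HDE groups, the fit was also read with no minimum, over 766 genes, where it was 2.20 (adjusted p = 1.3e-07 by edgeR).

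Trem2 was also the member nearest the assay's background. Its raw counts were under 87 in 11 of the 12 saline libraries and in 1 HDE library, and their saline mean was 60.9. Of the 388 genes tested, 14 had a saline mean under the minimum in this way, and Trem2 was the 1 member among them. It nevertheless exceeded the highest negative control of its own library in all 21 libraries. The margin was small in saline + NNK run 1 lane 5 (37 against 35) and in HDE only run 2 lane 12 (20 against 17). In the first of these, 37 was under the mean plus 2 SD of the negative controls, 39.8. After subtraction of the mean negative control, its log2 fold change was 2.62.

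The low HDE only library also had the lowest sum of macrophage and monocyte markers among HDE libraries, a sum that on average is mostly Lyz2. Its summed normalized counts of macrophage and monocyte markers were 53431, where the other 3 HDE only libraries had 96511, 98939 and 99450 and the highest saline library 45837. Of the 71 genes with at least 8 of 9 HDE libraries above all saline libraries, this library was above all saline libraries for 38, inside the saline range for 32 and below it for 1, and that 1 was Trem2. For Trem2 this was by a small margin, 35.6 against a lowest saline value of 36.4. Leaving this HDE library out together with the marked saline library gave Trem2 a log2 fold change of 2.36 (SE 0.16). This library was singled out after its values were seen.

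For Trem2, the RefSeq promoter (GRCm38.p6, plus strand, chr17:48346151-48346450) is shown because it is the gene with the largest change. Capitals mark AGGTCA, a half-site bound by nuclear receptors, and GAGGAA, the core bound by the myeloid factor PU.1, both here on the opposite strand (read TGACCT and TTCCTC), at -68 and -40 from the start. Promoters of Abca1 (chr4:53159846-53160145) and Cd36 (chr5:17835847-17836146), both on the minus strand, are set beside it as the member that did not pass and the member that fell. Capitals mark CACGTG, an E-box, in Abca1 at -147 and AGGTCA on the opposite strand in Cd36 at -228.
Trem2: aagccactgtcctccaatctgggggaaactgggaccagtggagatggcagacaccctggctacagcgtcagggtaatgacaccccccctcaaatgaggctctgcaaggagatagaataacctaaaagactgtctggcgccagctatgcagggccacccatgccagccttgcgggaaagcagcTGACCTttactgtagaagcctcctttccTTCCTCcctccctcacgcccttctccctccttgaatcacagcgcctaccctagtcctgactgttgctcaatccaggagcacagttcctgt
Abca1: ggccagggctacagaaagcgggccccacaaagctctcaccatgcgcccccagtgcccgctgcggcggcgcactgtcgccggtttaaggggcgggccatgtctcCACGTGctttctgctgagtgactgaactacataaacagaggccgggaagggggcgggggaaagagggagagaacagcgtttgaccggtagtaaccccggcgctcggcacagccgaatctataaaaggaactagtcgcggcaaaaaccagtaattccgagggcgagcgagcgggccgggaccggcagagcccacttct
Cd36: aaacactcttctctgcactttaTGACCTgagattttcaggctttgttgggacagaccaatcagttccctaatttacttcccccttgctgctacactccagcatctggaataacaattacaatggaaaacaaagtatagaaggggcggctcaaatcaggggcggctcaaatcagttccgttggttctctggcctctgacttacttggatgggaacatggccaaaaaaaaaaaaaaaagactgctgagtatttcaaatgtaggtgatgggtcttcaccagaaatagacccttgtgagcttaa

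Each window runs from 250 bases before the start to 50 after it, and both strands were searched. Of 32851 mouse promoter windows, 16.3% held AGGTCA, 28.3% GAGGAA, 7.15% CACGTG and 5.2% TGACTCA, the AP-1 site, which was in none of the windows of these genes. Apoe has 3 windows in the table, of which 1 held GAGGAA at -132 and 1 held it at -250 and 2. The panel's probes were not matched to a start site, so which of the 3 is used in these lungs was not tested.

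Apoe, the ligand, moved with Trem2 but by far less. Normalized counts of Apoe were 2639, 2839.9, 2917, 3241 and 3411 in HDE + NNK lungs and 2234, 2896, 2967 and 3698 in HDE only lungs. In saline + NNK lungs the lowest, median and highest were 1991, 2228 and 2315, and in saline only lungs 1680.2, 2117 and 2730.2. Here 7 of 9 HDE libraries were above all saline libraries and the other 2 lay inside the saline range. Means were 2983 ± 429 in HDE-exposed lungs (SD, n = 9) and 2192 ± 255 in saline-exposed lungs (SD, n = 12), a log2 fold change of 0.44 (SE 0.09, adjusted p = 0.00025 by edgeR). In run 1, all 6 HDE libraries, between 2639 and 3411, were above the 6 saline libraries, between 1991 and 2315. In run 2, 2 of 3 were.

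Of the exporters Abca1 and Abcg1, Abcg1 rose and Abca1 did not pass the test. Abcg1 had 730.3, 771, 801, 917 and 1059.6 normalized counts in HDE + NNK lungs and 522, 765, 797 and 1089 in HDE only lungs. In saline + NNK lungs it ranged from 532 to 737 with a median of 628, and in saline only lungs from 401 to 887 with a median of 606. Only 3 HDE libraries were above all saline libraries, and 6 overlapped. The means were 828 ± 174 in HDE-exposed lungs (SD, n = 9) and 621 ± 121 in saline-exposed lungs (SD, n = 12), a log2 fold change of 0.41 (SE 0.13, adjusted p = 0.012 by edgeR). This call was lost with TMM scaling, where the log2 fold change was 0.21 (adjusted p = 0.10).

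Abca1 had 372, 417, 429, 453 and 466 normalized counts in HDE + NNK lungs and 383, 406, 601 and 620.0 in HDE only lungs. In saline + NNK lungs it ranged from 417 to 535 with a median of 472, and in saline only lungs from 349.7 to 708 with a median of 443. All 9 HDE libraries lay inside the saline range. Means were 461 ± 90.0 in HDE-exposed lungs (SD, n = 9) and 464 ± 92.8 in saline-exposed lungs (SD, n = 12), a log2 fold change of 0.00 (SE 0.12). Its 95% confidence interval ran from -0.24 to 0.24. The highest saline value, 708, came from the library with the quality mark. The difference between the exporters was itself tested as a ratio within each library, which needs no scaling. The log2 ratio of Abca1 to Abcg1 raw counts averaged -0.84 ± 0.39 in HDE-exposed lungs (SD, n = 9) and -0.42 ± 0.23 in saline-exposed lungs (SD, n = 12), a difference of -0.40 within NNK strata (exact permutation p = 0.0072, two-sided, adjusted p = 0.0090 over 10 pairs). In 5 of the 9 HDE libraries this ratio was under the lowest saline value. Within runs this difference did not pass, at -0.46 in run 1 (exact permutation p = 0.057) and -0.23 in run 2 (exact permutation p = 0.51).

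Cd36, the uptake receptor, was the 1 member that fell. Its normalized counts were 3931, 4166, 4258, 4412 and 5793 in HDE + NNK lungs and 3669, 4595, 5194 and 5976 in HDE only lungs. In saline + NNK lungs the lowest, median and highest were 4367, 5175 and 6564, and in saline only lungs 5493, 6492 and 7644. Over both runs 4 of 9 HDE libraries were below every saline library. Means were 4666 ± 813 in HDE-exposed lungs (SD, n = 9) and 5986 ± 1046 in saline-exposed lungs (SD, n = 12), a log2 fold change of -0.35 (SE 0.10, adjusted p = 0.0079 by edgeR). No gene of the 388 had all 9 HDE libraries below all saline libraries, a share of 0.0%.

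For Cd36 the run mattered more than for the others. Run 2 over run 1 gave Cd36 a log2 fold change of 0.41 (edgeR, adjusted p = 0.00012) in a fit with the groups, in which 28.4% of all genes were called and no other member was. Within run 1 Cd36 lay between 3669 and 4595 in 6 HDE libraries and between 4367 and 5538 in 6 saline libraries, with 4 HDE libraries below all 6 saline libraries. Within run 2 the 3 HDE libraries, between 5194 and 5976, all lay below the 6 saline libraries, between 6264 and 7644. The raw columns name no sex, so comparisons within a run were not split by sex. The groups differed in their sexes, so exposure and sex may go together within a run, in part or in full, which was not tested. With run as a further term, the log2 fold change for HDE over saline was -0.29 (SE 0.06, adjusted p = 0.00039), a smaller change with a smaller error. The effect of HDE did not pass a test of difference between the runs for any of the 5 genes, where 0.515% of all genes were called.

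Without NNK, HDE only over saline only changed Trem2, Apoe and Cd36. The log2 fold changes by edgeR were 2.02 for Trem2 (adjusted p = 0.00015), 0.43 for Apoe (adjusted p = 0.013) and -0.43 for Cd36 (adjusted p = 0.032), while Abcg1 at 0.35 and Abca1 at 0.13 did not pass. Of all genes 34.5% were called, 30.2% higher and 4.38% lower. Leaving out the low HDE only library (run 2 lane 12) and the marked saline only library, all 5 genes passed. Abca1 then rose by 0.40 (adjusted p = 0.030) and Abcg1 by 0.64 (adjusted p = 0.0052), so that the exporters' calls in this comparison depended on those 2 libraries. Each library was also left out in turn. Trem2 passed in all 21 such fits, Apoe in 20, Cd36 in 16 and Abcg1 in 2. Apoe missed without HDE only run 2 lane 11 (0.30, adjusted p = 0.093 by edgeR), and Cd36 missed without either run 1 library of HDE only (lane 10 or 12) or without lane 3, 5 or 6 of the run 2 saline only libraries, at -0.42 to -0.32. Abcg1 passed without HDE only run 2 lane 12 (0.51) and without saline only run 2 lane 3 (0.48). In run 2 alone, with 2 HDE only and 4 saline only libraries, 0 members passed, and Trem2 had a log2 fold change of 1.54 (adjusted p = 0.076).

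With NNK in both groups, HDE + NNK over saline + NNK changed Trem2, Apoe and Abcg1. The log2 fold changes by edgeR were 2.38 for Trem2 (adjusted p = 1.2e-05), 0.46 for Apoe (adjusted p = 0.0050) and 0.46 for Abcg1 (adjusted p = 0.045). Cd36 had -0.27 (adjusted p = 0.16) and Abca1 -0.13 (adjusted p = 0.53). Of all genes 35.6% were called, 29.9% higher and 5.67% lower. With run as a term, Cd36 passed at -0.21 (adjusted p = 0.045), as it did without HDE + NNK run 2 lane 9, at -0.37. The Abcg1 call was at the edge, since it was kept in 8 of the 21 fits that left out 1 library, with log2 fold changes between 0.37 and 0.52, and the adjusted p without HDE + NNK run 1 lane 11 was 0.10. The difference between the HDE effects with and without NNK was tested for each gene and none passed, where 0.0% of all genes were called. It was largest in size for Trem2, 0.36 with a 95% confidence interval of -0.68 to 1.41, and -0.26 for Abca1, with an interval of -0.75 to 0.23.

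NNK itself changed none of the 5 genes at an adjusted p under 0.05 in edgeR. In HDE + NNK over HDE only and in saline + NNK over saline only, 0.0% of all genes were called, with 8 and 4 genes at an unadjusted p under 0.05. For Trem2 the log2 fold changes were 0.07 (95% confidence interval -0.69 to 0.83) in HDE-exposed lungs and -0.30 (-1.01 to 0.42) in saline-exposed lungs. For Apoe they were 0.03 (-0.25 to 0.31) in HDE-exposed lungs and 0.00 (-0.25 to 0.24) in saline-exposed lungs. Cd36 had -0.11 (-0.43 to 0.22) in HDE-exposed lungs and -0.27 (-0.55 to 0.01) in saline-exposed lungs, the second with an unadjusted p of 0.061. Both Cd36 intervals include the -0.35 that HDE gave, while both Trem2 intervals end well short of 2.20. The plot of changes by comparison sets the 5 contrasts side by side.

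**Figure D2:**
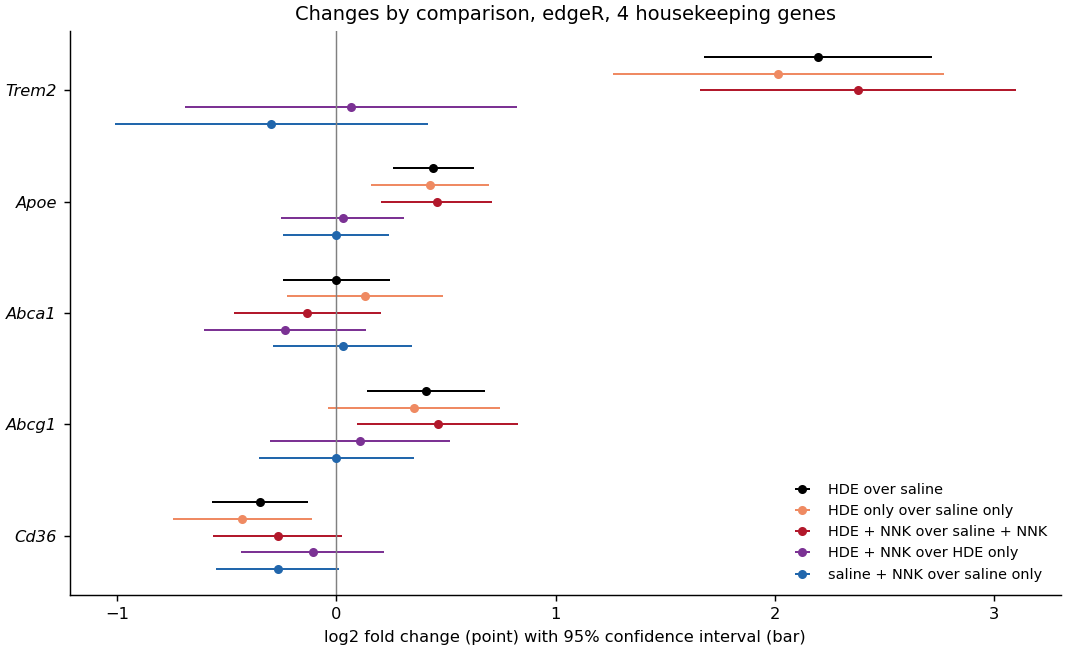
Log2 fold changes (points) with 95% confidence intervals (bars) of the 5 genes in 5 comparisons, from edgeR with scaling by 4 housekeeping genes. For Trem2 the 3 HDE comparisons lie between 2.02 and 2.38 and both NNK comparisons have intervals that include 0.

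Ratios within a library, which scaling cannot move, separated the members from each other. Of the 10 pairs, 9 differed between HDE-exposed and saline-exposed lungs (exact permutation within NNK strata, two-sided, Benjamini-Hochberg over the 10 pairs). Trem2 rose against each of the other genes, by 2.33 on the log2 scale against Cd36, 1.98 against Abca1, 1.58 against Abcg1 and 1.54 against Apoe. Apoe over Cd36 averaged -0.64 ± 0.36 in HDE-exposed lungs (SD, n = 9) and -1.44 ± 0.26 in saline-exposed lungs (SD, n = 12), a difference of 0.79 (exact permutation p = 7.2e-05, adjusted p = 0.00034) that was above all saline libraries in 7 of 9. Abcg1 over Cd36 differed by 0.75 and Apoe over Abca1 by 0.44. Apoe over Abcg1 differed by 0.04 (exact permutation p = 0.76). Abca1 over Cd36 was the weakest to pass, 0.35 (exact permutation p = 0.040, adjusted p = 0.044), and after subtraction of negative controls it had a p of 0.053. In run 1 alone (6 HDE and 6 saline libraries) each Trem2 ratio had an exact permutation p of 0.0048. Apoe over Abca1, Apoe over Cd36 and Abcg1 over Cd36 had the same p, the smallest that 420 relabellings can give. In run 2 alone (3 and 6) only Apoe over Cd36 passed, at 0.63 (exact permutation p = 0.022, the smallest that 45 relabellings can give). These within-run p values are unadjusted and were not split by sex, which may go together with exposure within a run. The plot of ratios shows 6 of the pairs.

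**Figure D3:**
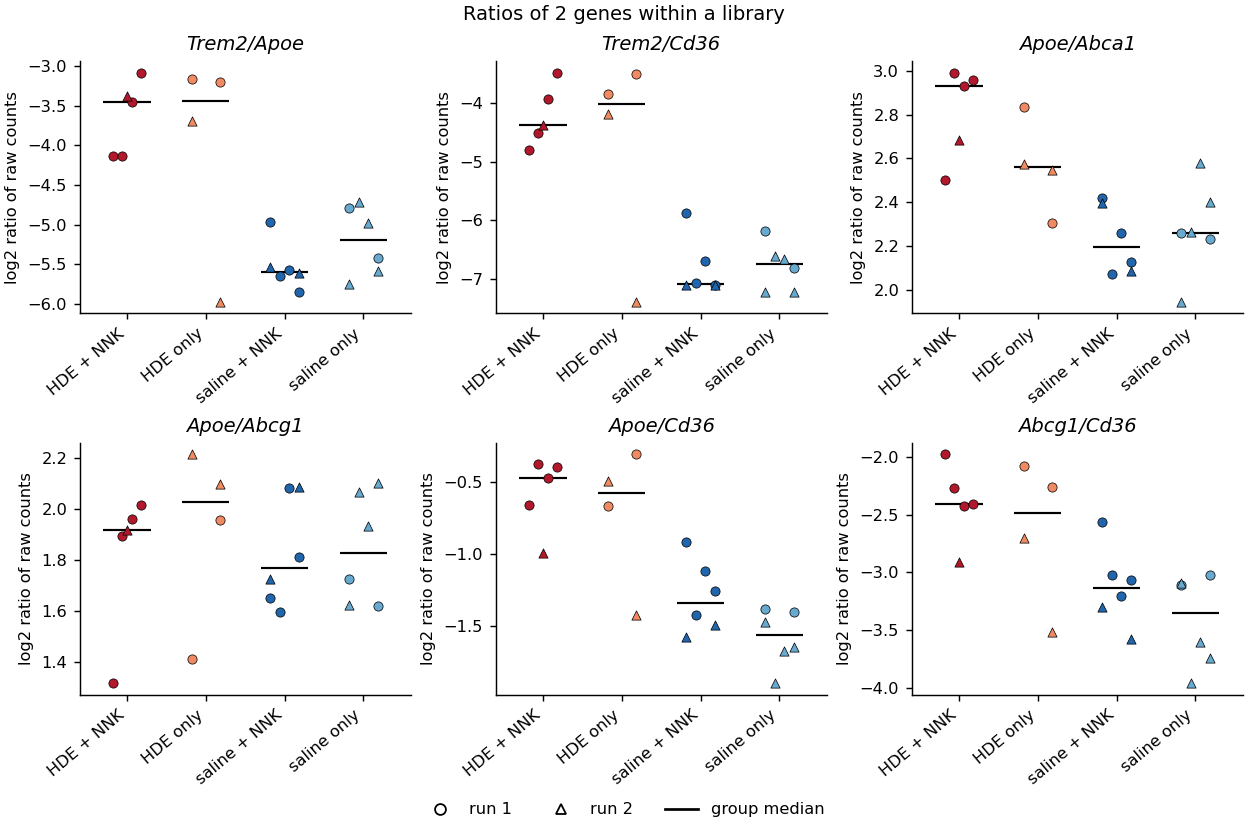
Log2 ratios of raw counts of 2 genes in the same library, by group, with circles for run 1, triangles for run 2 and a bar at the group median. Apoe over Cd36 was higher than in any saline library in 7 of 9 HDE libraries, whereas Apoe over Abcg1 overlapped, with a difference of 0.04.

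The smaller changes differed between scalings. The median of all genes was 0.15 with the housekeeping scaling, -0.04 with TMM or DESeq2 and -0.34 with the deposited values floored at 87, left unscaled and tested with limma, a setting that differs from the others in floor and test as well as in scaling. Trem2 was called with each of these, from 2.20 to 1.13. Apoe stayed higher with TMM at 0.27 (edgeR, adjusted p = 0.022), but was at -0.08 unscaled. Cd36 was lower under every scaling, at -0.50 with TMM (edgeR, adjusted p = 0.0043). Abca1 was called with none of these, at -0.18 with TMM and -0.52 unscaled. The plot of changes by scaling shows the members against that median.

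**Figure D4:**
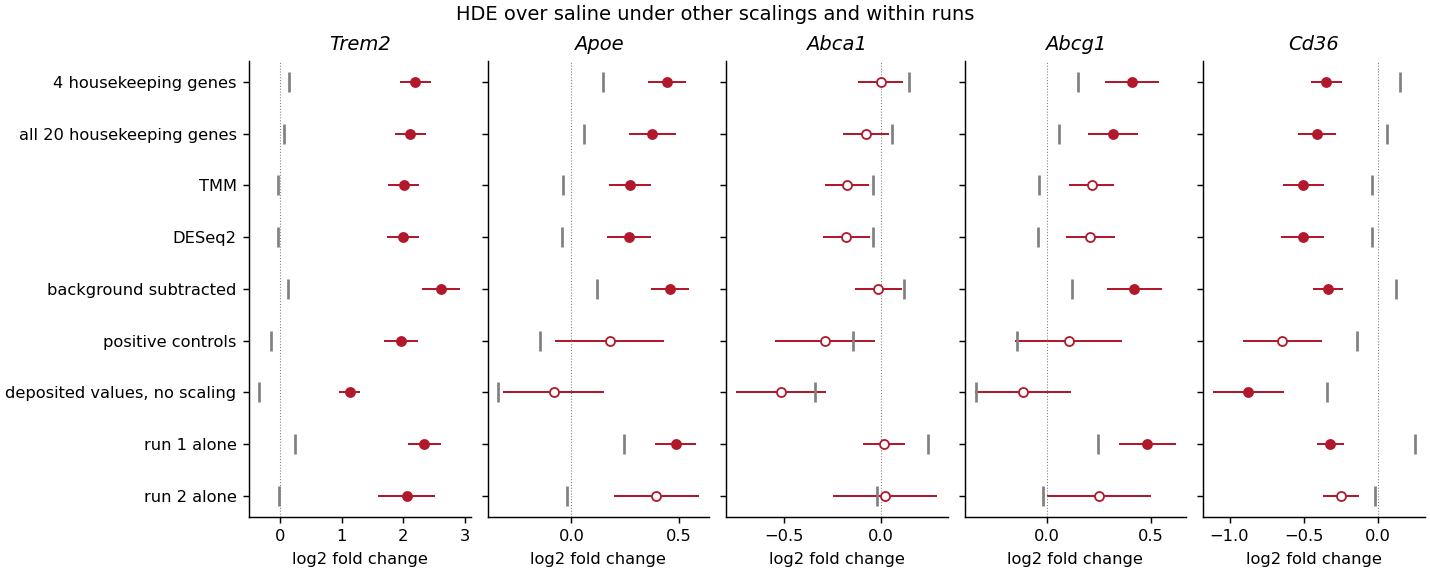
Log2 fold changes of HDE over saline (points, with SE bars) under other scalings and within each run, filled where the adjusted p was under 0.05, with a grey tick at the median of all genes tested. Trem2 is filled and at 1.13 or more in all 9 settings, while Apoe and Abcg1 fall to -0.08 and -0.12 without scaling.

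Sex could be read only from the second deposited table, in which counts under 87 are set to 87. There Trem2 is at that minimum in all 12 saline samples and in 1 HDE only male, so its saline values are upper bounds. No member differed between male and female mice in edgeR (0.258% of all genes were called), and the HDE effect did not pass a test of difference between the sexes for any member (0.258% called). Cd36 came nearest. Its log2 fold change for HDE over saline was -0.12 in males (adjusted p = 0.66, edgeR) and -0.53 in females (adjusted p = 0.0055), a difference of 0.42 with an unadjusted p of 0.069. The groups differed in their sexes, with 2 males of 5 in HDE + NNK, 3 of 4 in HDE only, 3 of 6 in saline + NNK and 1 of 6 in saline only. The difference between the sexes was close in size to that between the runs for Cd36, 0.41, and the part of the run in it was not tested. In females 42.5% of genes were called for HDE over saline, and in males 24.7%. Apoe had 0.46 in males (adjusted p = 0.022) and 0.47 in females (adjusted p = 0.0062), and Trem2 had 1.42 in males and 1.92 in females. That table names no run, and no fit held both sex and run.

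Markers of macrophages and of endothelium moved with HDE, in opposite directions. In a bulk tissue, fewer or more cells of a type and less or more RNA per cell cannot be told apart. All 11 tested macrophage and monocyte markers rose, where 39.4% of all genes tested were higher. Of the 11, 1 reached the count minimum only through the HDE groups. The sum of the 13 on the panel, none of them at 0 in any library, ran from 53431 to 100572 in HDE-exposed lungs and from 34724 to 45837 in saline-exposed lungs. Lyz2 alone averaged 75697 normalized counts in HDE-exposed lungs and 37684 in saline-exposed lungs, so on average it made up most of this sum. The alveolar macrophage markers on the panel, 4 of the 10 listed, summed to between 8320 and 46671 in HDE-exposed lungs and between 1483 and 5283 in saline-exposed lungs, and of the 3 tested Chil3 and Itgax rose and Marco fell. Chil3 alone made up 93.9% to 98.8% of this sum in HDE-exposed lungs and 73.8% to 93.0% in saline-exposed lungs. Without Chil3 the sums overlapped, at 237 to 715 in HDE-exposed lungs and 263 to 605 in saline-exposed lungs. All 10 endothelial markers fell, where 10.1% of all genes tested were lower. Their sum ran from 7680 to 14084 in HDE-exposed lungs and from 12291 to 15684 in saline-exposed lungs. The median log2 fold change was 1.13 for the macrophage markers and -0.55 for the endothelial ones, next to 2.20 for Trem2 and -0.35 for Cd36. The part of these cell types in the changes of the 5 genes was not tested. Epithelial markers, 1 of 4 higher and 1 lower, summed to 4626 to 6387 in HDE-exposed lungs and 4328 to 5237 in saline-exposed lungs. Macrophage markers were not alone in rising. All 3 tested B cell markers rose (median log2 fold change 1.46), as did 2 of neutrophils (0.66) and 1 of T cells (0.67). Of these, 1 B cell marker and the T cell marker reached the count minimum only through the HDE groups. The 1 platelet marker tested did not pass.

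**Figure D5:**
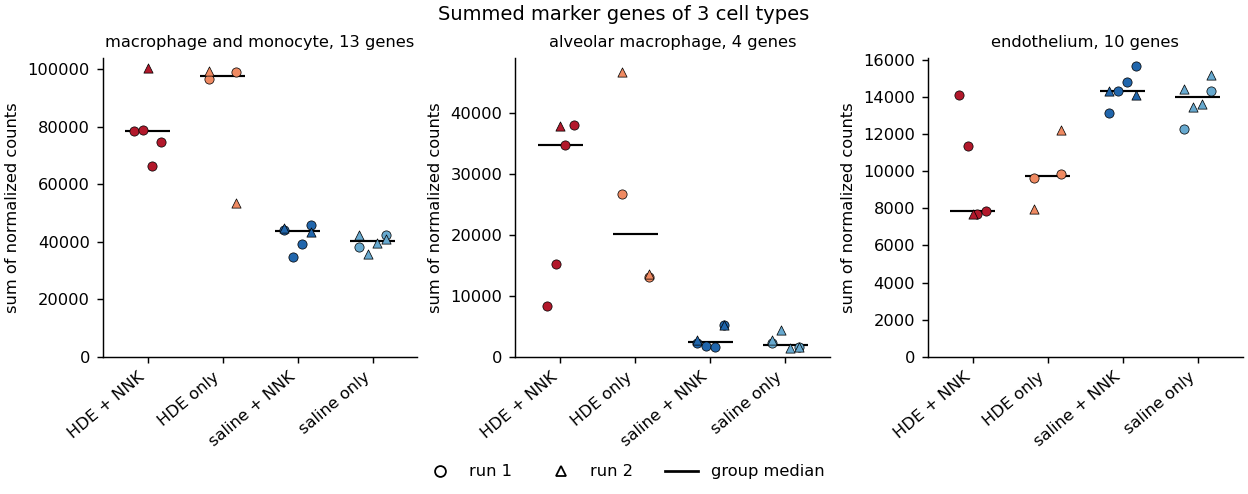
Sums of normalized counts of macrophage and monocyte, alveolar macrophage and endothelial marker genes in each library, with circles for run 1, triangles for run 2 and a bar at the group median. All HDE libraries are above all saline libraries in the first 2 panels. The first is on average mostly Lyz2, and the second is mostly Chil3 (at least 73.8% of the sum in every library). In the third, HDE libraries reach down to 7680 against a saline minimum of 12291.

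Other genes of lipid-handling macrophages were read from 4 lists, against the 39.4% of all genes that were higher and 10.1% that were lower in this comparison. Of 15 partners, ligands and signaling genes of Trem2, 6 were tested, and 5 rose. Syk, the kinase downstream of Trem2 and other receptors, rose by 1.18 on the log2 scale (edgeR, adjusted p = 1.4e-07), with a mean of 277 ± 66.3 normalized counts in HDE-exposed lungs (SD, n = 9) and 121 ± 19.4 in saline-exposed lungs (SD, n = 12). Clu, which codes for clusterin, another lipoprotein ligand, rose by 0.72, the kinase subunit Pik3cd by 0.83 and the cytokine Il34 by 0.48, while App had -0.18 (adjusted p = 0.099). The adaptor Tyrobp was not analysed here. The median of the list was 0.60.

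Of 25 genes of lipid-laden macrophages, 17 were tested, 14 rose and 1 fell, with a median of 0.97, where 39.4% of all genes tested were higher and their median was 0.15. The macrophage and monocyte markers, which share some genes with this list, all rose (11 of 11 tested), with a median of 1.13. The rise of this list is thus not set apart from that of macrophage markers in general. The lysosomal protease Ctss rose by 1.99 and the chitinase-like Chil3, made by alternatively activated macrophages, by 3.45, with a mean of 25405 ± 13816 normalized counts in HDE-exposed lungs (SD, n = 9) and 2350.5 ± 1433 in saline-exposed lungs (SD, n = 12). Spp1, which codes for osteopontin, rose by 1.28 and the tetraspanin Cd63 by 0.90. All 9 HDE libraries were above all 12 saline libraries for each of these 4, as for 8.76% of all genes tested, and the 4 are those of the list with the smallest adjusted p. Vegfa was the 1 that fell, by 0.73, and it is a growth factor that lung epithelium makes in quantity.

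Of 19 scavenger and lipoprotein receptors and their bridging proteins, 9 were tested, 5 rose and 1 fell, with a median of 0.37. Msr1 rose by 1.83 (edgeR, adjusted p = 2.3e-07), with 191 ± 79.1 normalized counts in HDE-exposed lungs (SD, n = 9) and 53.5 ± 12.0 in saline-exposed lungs (SD, n = 12), whereas Marco, typical of resident alveolar macrophages, fell by 1.16 (adjusted p = 0.00015), with 124 ± 49.7 in HDE-exposed lungs and 252 ± 89.2 in saline-exposed lungs. Msr1, like Trem2, reached the count minimum only through the HDE groups, with a mean raw count of 155 in HDE-exposed lungs and 61.5 in saline-exposed lungs. Axl, a receptor for dying cells, rose by 0.62, and Mfge8, which bridges them to the phagocyte, by 0.80. Of 25 sterol and fatty acid regulators only 4 were tested, 1 rose and 1 fell, with a median of 0.15. Lcn2, a carrier of small lipophilic molecules, rose by 2.08 and the transporter Abcb1a fell by 0.43 (edgeR, adjusted p = 0.0041), while Pla2g1b at 0.18 and Ptgs2 at 0.13 did not pass. Pparg, a fatty acid receptor of alveolar macrophages, was on the panel but did not reach the count minimum.

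After each gene's group means were taken away, the genes whose levels varied most like Trem2 over the 21 libraries were Itgb2 (Pearson r 0.86), Cd37 (0.86) and Lgals3 (0.84), genes of leukocytes and macrophages. Much of this came from 1 library. Without HDE only run 2 lane 12 the r was 0.48 for Itgb2, 0.54 for Cd37 and 0.73 for Lgals3. Apoe varied most like Cd68 (0.72), Itgb2 (0.70) and Clec4n (0.69), and without that library these were 0.58, 0.55 and 0.56. With TMM scaling Itgb2 was at rank 28 for Apoe. Abca1 varied most like Apoe (0.68), then Rel and Jak2 (both 0.61), and Abcg1 most like Pla2g1b (0.77), Hc (0.75) and Tlr2 (0.74). Cd36 varied most like Ppia (0.88), Cd47 (0.84) and Cd164 (0.82), none of them a gene of macrophages alone. The libraries share run and depth, which were not removed, so these are descriptions.

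Between the 5 genes themselves no relation passed. Of 20 correlations, 10 pairs in each exposure, the lowest adjusted p was 0.168 by permutation. Apoe and Abca1 in saline-exposed lungs had the highest coefficient, r = 0.75 and Spearman rho = 0.54 over 12 libraries (permutation p = 0.012 and 0.075), and r was 0.19 without the 2 libraries farthest from the median of Apoe, so it rested on those. Within runs r was -0.67 in run 1 and 0.84 in run 2.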

How the data were processed

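From 50 ng of lung RNA, hybridized over 16 h, the authors obtained counts with the nCounter Sprint and nSolver. They deposited raw counts of 784 probes, with group, run and lane, and the same counts with gene values under 87 raised to 87, with sex and replicate number. Once floored and sorted, all 16170 gene values of both tables were equal. Of 24 lungs drawn, 21 are used here. Raw counts were used for the main results.

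Counts were scaled by 4 housekeeping genes. Genes whose raw counts averaged 87 or more (388) were tested with edgeR 4.0.16 (robust quasi-likelihood, 4 group means) in R 4.3.3. Standard errors are log2 fold changes divided by the square root of F. Ratios and correlations used exact permutation, or 100000 permutations over the 12 saline libraries, in Python 3.11.15. Correlations used log2(normalized count + 1). Each library is 1 animal, and counting error was not modelled apart from the spread between animals.

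Genes named are the 5 members, the 3 genes most like each, and up to 4 tested genes per list with the smallest adjusted p. Other genes named here, App, Vegfa, Pparg, the alveolar marker Itgax and the macrophage marker Lyz2, were chosen after their values were seen. The members and all lists were chosen with earlier results of these data known. Alternatives were TMM, DESeq2 1.42.0, limma 3.58.1, other housekeeping and positive controls, background subtraction, count minimums, pseudocounts of 1 and 20, run, sex, replicate number and leaving out libraries. The test was first checked on simulated counts. Of 388 symbols, 382 matched the RefSeq table. Promoter sequences are RefSeq's for GRCm38.p6, matched for 4 of the 5 genes (Abcg1 was not).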

Additional observations from a re-analysis of the deposited data

Results flagged for a closer look

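In 4 of the 20 sets formed by 1 gene in 1 group, a single library lay far from the others by Dixon's test at the 95% level, where chance alone flags about 1 in 20. Trem2 in HDE only lungs was 35.6 normalized counts in run 2 lane 12, with the nearest of the other libraries at 286. Trem2 in saline + NNK lungs reached 74.0 in run 1 lane 1, the next at 47.7. Abca1 in saline only lungs reached 708 in run 2 lane 3, the library with the quality mark, the next at 463. Cd36 in HDE + NNK lungs reached 5793 in run 2 lane 9, the next at 4412, and that library was the only one of its group in run 2.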

How the results depend on the processing

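Values are log2 fold changes of HDE over saline unless stated. A value that did not pass and changed sign was counted as kept when it moved by less than 1 SE. Trem2 kept its call under every alternative that tested it; with 87 counts required in every library it was not tested. Abcg1 lost its call with TMM (0.21), DESeq2 (0.21), positive controls (0.10) and run 2 alone (0.25), and turned to -0.12 on unscaled deposited values. Apoe lost it with positive controls (0.18) and run 2 alone (0.39), and turned to -0.083 unscaled, as it did in HDE only over saline only (-0.14) and HDE + NNK over saline + NNK (-0.025, where Abcg1 was -0.020). Cd36 lost it with positive controls (-0.64) and run 2 alone (-0.25). Of 5 genes, 4 were called; positive controls and run 2 alone each called 1 and unscaled values 2. For HDE only over saline only, 3 were called, but 1 with all housekeeping genes or positive controls, 0 in run 2 alone, and 5 without the 2 doubted libraries, an alternative chosen after seeing the data, in which Abca1 was 0.13 for HDE over saline. For HDE + NNK over saline + NNK, 3 were called, but 1 each with TMM, DESeq2, positive controls, run 2 alone and unscaled values. Leaving out 1 library gave 2 to 4 members called in either single comparison and kept all 4 calls for HDE over saline, where Trem2 ran from 2.10 to 2.38, Apoe from 0.38 to 0.50, Abca1 from -0.06 to 0.08, Abcg1 from 0.31 to 0.49 and Cd36 from -0.41 to -0.29. The cause of these shifts was not tested. With the replicate number as a replicate block, on the floored counts, Trem2 was 1.56, Apoe 0.46, Abcg1 0.36, Cd36 -0.27 and Abca1 0.01. Libraries sharing a number correlated at 0.13 on average (28 pairs, -0.23 to 0.51), against -0.03 for other pairs. Whether the number pairs the mice was not tested. The number of mice, 9 against 12, limits the smaller changes.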
